A study of Homo sapiens with 30 samples.

Results

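A549 cells, a human lung adenocarcinoma line, were compared after 4 days and after 2 days of MS023, an inhibitor of Type I protein arginine methyltransferases, by precision run-on sequencing (PRO-seq). The comparison was chosen by label alone: the 2 libraries of MS023 at 4 days were set against the 2 libraries of MS023 at 2 days, so that it used 4 of the 30 libraries of the series, and all 22919 genes with enough counts were tested. Both groups received 1 µM MS023 in 0.01% DMSO. For reference, the text also gives untreated A549 cells (0.01% DMSO, labelled with a time of 15 min), cells after 7 days of 1 µM MS023, and cells after 2 and 4 days of 1 µM GSK591, which inhibits the methyltransferase PRMT5, each with 2 libraries and the same DMSO content. No untreated cells of 2 or 4 days are among the groups, so that time on the drug and time in culture cannot be told apart. The labels do not say that the 2 libraries of a group came from separate cultures, and p-values therefore measure only the spread between these samples, which may be technical.

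In PRO-seq, RNA polymerases that are engaged on DNA in permeabilised cells add a labelled nucleotide to the transcript they are making, and the labelled RNA is captured and sequenced. The signal reports ongoing transcription rather than stored RNA. Type I arginine methyltransferases, of which PRMT1 is the most active in most cells, place asymmetric dimethylarginine on histones and on many RNA-binding proteins, while PRMT5 places the symmetric form. In the interferon pathway, receptors of foreign or misplaced RNA and DNA (RIG-I, MDA5, cGAS) signal through MAVS or STING to produce interferons. Secreted interferon acts on cell surface receptors and the kinases JAK1 and TYK2 to activate a transcription factor complex that includes IRF9 and binds a DNA element upstream of antiviral effector genes such as MX1, the OAS genes and the IFIT genes.

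Effector genes of the interferon response had the highest median change of 23 gene lists, not counting the short lists of cell type markers. Stretches upstream of 4 effectors that rose and of ISG15, which did not pass the test, are shown because they carry the core letters of the interferon-stimulated response element. Each is taken from the 250 bases before the RefSeq start of the gene (GRCh38.p14), cut short before the first base that GENCODE 29 annotates as exon on that strand. They are written 5′ to 3′ on the gene's strand, and capitals mark each match to GAAA, any 2 bases and GAAA again, or to the reverse complement, TTTC, any 2 bases and TTTC.
IFI6 (chr1:27672219-27672442, minus strand): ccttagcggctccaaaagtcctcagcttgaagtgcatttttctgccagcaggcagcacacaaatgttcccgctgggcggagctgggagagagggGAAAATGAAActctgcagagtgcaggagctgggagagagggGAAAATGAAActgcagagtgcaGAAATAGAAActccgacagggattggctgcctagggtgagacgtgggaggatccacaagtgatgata
IFI27 (chr14:94110486-94110677, plus strand): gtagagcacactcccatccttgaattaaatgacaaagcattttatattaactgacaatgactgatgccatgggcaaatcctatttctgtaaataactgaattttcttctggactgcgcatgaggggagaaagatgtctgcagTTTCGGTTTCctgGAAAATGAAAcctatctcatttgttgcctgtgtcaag
OAS3 (chr12:112938224-112938351, plus strand): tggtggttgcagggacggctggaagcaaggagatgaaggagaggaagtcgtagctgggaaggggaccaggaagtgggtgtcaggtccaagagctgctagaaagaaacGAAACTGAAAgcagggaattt
IFIT1 (chr10:89392373-89392545, plus strand): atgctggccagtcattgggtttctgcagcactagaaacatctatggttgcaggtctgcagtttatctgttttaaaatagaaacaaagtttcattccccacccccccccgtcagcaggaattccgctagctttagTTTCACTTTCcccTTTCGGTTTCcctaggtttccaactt
ISG15 (chr1:1013247-1013422, plus strand): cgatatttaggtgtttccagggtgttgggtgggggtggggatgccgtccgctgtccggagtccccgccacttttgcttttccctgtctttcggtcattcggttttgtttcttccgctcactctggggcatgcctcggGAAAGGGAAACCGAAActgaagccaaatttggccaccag
In these stretches IFI6 had 3 matches, OAS3 had 1 and IFI27, IFIT1 and ISG15 had 2 each. Those of IFI27 and ISG15 lie inside the longer GENCODE gene, outside its exons. Of 27305 RefSeq windows of 250 bases, 839 (3.07%) held at least 1 match on either strand, with overlapping matches counted. Of the 42 effector genes tested, 32 were matched to a window by symbol, and 20 of these (62.5%) held the letters. Among matched effectors that rose, 7 of 13 held them (53.8%), and among those that did not pass the test, 13 of 19 did (68.4%). A match of letters is a description and does not show that a factor was bound.

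Total counts were 8441211 and 9360229 in the 2 libraries at 2 days and 10936943 and 11662350 at 4 days, of which 62.2% to 66.1% lay on the mitochondrial chromosome. Levels are given in CPM, a gene's counts relative to the library's total with trimmed mean of M-values (TMM) scaling, and a gene is called changed where the edgeR quasi-likelihood test gave an adjusted p (Benjamini-Hochberg, over all genes tested) below 0.05. Summed over all genes tested, CPM with this scaling was 1.451e+06 and 1.251e+06 in untreated cells. With MS023 it was 8.235e+05 and 8.62e+05 at 2 days and 7.749e+05 and 8.286e+05 at 4 days. Any placement of MS023 libraries above or below untreated cells therefore holds relative to TMM scaling. Between 2 and 4 days, 1126 of 22919 genes changed (4.91%), 509 higher (2.22%) and 617 lower (2.69%). The median log2 fold change over all genes was -0.01. Scaling by total counts alone gave 79 calls, 52 higher and 27 lower, a fit with no filter on low counts gave 548 higher and 422 lower, and leaving out 1 library left 278 calls (without replicate 1 at 2 days), 403 (without replicate 2 at 2 days), 346 (without replicate 1 at 4 days) or 343 (without replicate 2 at 4 days). The features of the ribosomal DNA locus took 5.29% and 3.53% of counts at 2 days and 2.46% and 2.35% at 4 days, and their part in the other results was not tested beyond refitting with mitochondrial and ribosomal RNA genes removed, which gave 1162 calls. With total-count scaling the interferon effectors had 7 calls (14 with TMM), the immediate early genes 2 (9 with TMM), the NRF2, acute phase and glucocorticoid lists 1 each, and the other lists described here 0.

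The interferon effector genes that passed the test all rose between 2 and 4 days of MS023. Of 45 listed effectors, 42 could be tested, 14 rose and 0 fell, beside 2.22% of all genes that rose, and 37 of 42 had a log2 fold change above 0 with a median of 0.61. The effectors' summed level was 296.6 and 298.6 CPM at 2 days and 404.9 and 430.4 CPM at 4 days, beside 214.7 and 206.5 CPM in untreated cells and 244.0 and 250.9 CPM at 7 days. The 4 day libraries were thus the highest of these 8 and did not overlap any of the others. IFI6, XAF1 and BST2 passed the filter on low counts only through the 4 day libraries, and without them the median was 0.50 and 12 of 39 rose. The 14 that rose were MX1, OAS3, IFI6, IFI27, XAF1, IFIT1, CMPK2, OAS1, PARP9, DTX3L, PML, PARP14, DDX60 and IFITM1.

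MX1, a dynamin-like GTPase that blocks the replication of RNA viruses (ENSG00000157601.13, chromosome 21, 41420304 to 41459214, plus strand, GENCODE 29), stood at 5.57 and 4.52 CPM at 2 days and 15.5 and 18.1 CPM at 4 days. It was at 2.67 and 3.12 CPM in untreated cells and at 4.25 and 5.28 CPM at 7 days, so that only the 4 day libraries of these groups were high. Its log2 fold change from 2 to 4 days was 1.73 (SE 0.221, adjusted p = 5.78e-07, edgeR). Some of its exons overlap exons of 1 gene on the other strand, and whether counting used strand is not given in the sources used here.

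OAS3, which makes the 2-5A messenger that activates RNase L (ENSG00000111331.12, chromosome 12, 112938352 to 112973249, plus strand), stood at 17.6 and 14.8 CPM at 2 days and 34.2 and 31.7 CPM at 4 days. Its level was 13.3 and 14.3 CPM in untreated cells and 14.6 and 10.8 CPM at 7 days, and the 2 day libraries lay only just above these. The log2 fold change of OAS3 was 1.03 (SE 0.137, adjusted p = 1.35e-06, edgeR).

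IFI6, a small mitochondrial and endoplasmic reticulum protein (ENSG00000126709.14, chromosome 1, 27666061 to 27672218, minus strand), was near the limit of detection outside the 4 day libraries. Its counts were 7 and 7 at 2 days and 64 and 92 at 4 days, against 3 and 3 in untreated cells and 4 and 8 at 7 days. The 4 day libraries stood well clear of the rest. From 2 to 4 days the log2 fold change was 3.04 (SE 0.490, adjusted p = 4.7e-05, edgeR), a value that rests on few counts at 2 days. XAF1, an interferon-induced partner of the apoptosis inhibitor XIAP, had 2 and 1 counts at 2 days and 30 and 39 at 4 days. Its log2 fold change of 4.00 (SE 0.803, adjusted p = 0.00155, edgeR) depends on the prior count and is not a measured ratio. Both IFI6 and XAF1 passed the filter on low counts only through the 4 day libraries, so their p-values are no separate support for a rise.

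IFI27 (ENSG00000165949.12, chromosome 14, 94104836 to 94116698, plus strand), another small interferon-induced protein of mitochondria, stood at 2.35 and 2.49 CPM at 2 days and 8.31 and 7.26 CPM at 4 days. The 2 day libraries were level with untreated cells (2.22 and 2.62 CPM) and with 7 days of MS023 (2.05 and 1.74 CPM). For IFI27 the log2 fold change was 1.68 (SE 0.299, adjusted p = 0.000241, edgeR).

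**Figure D1:**
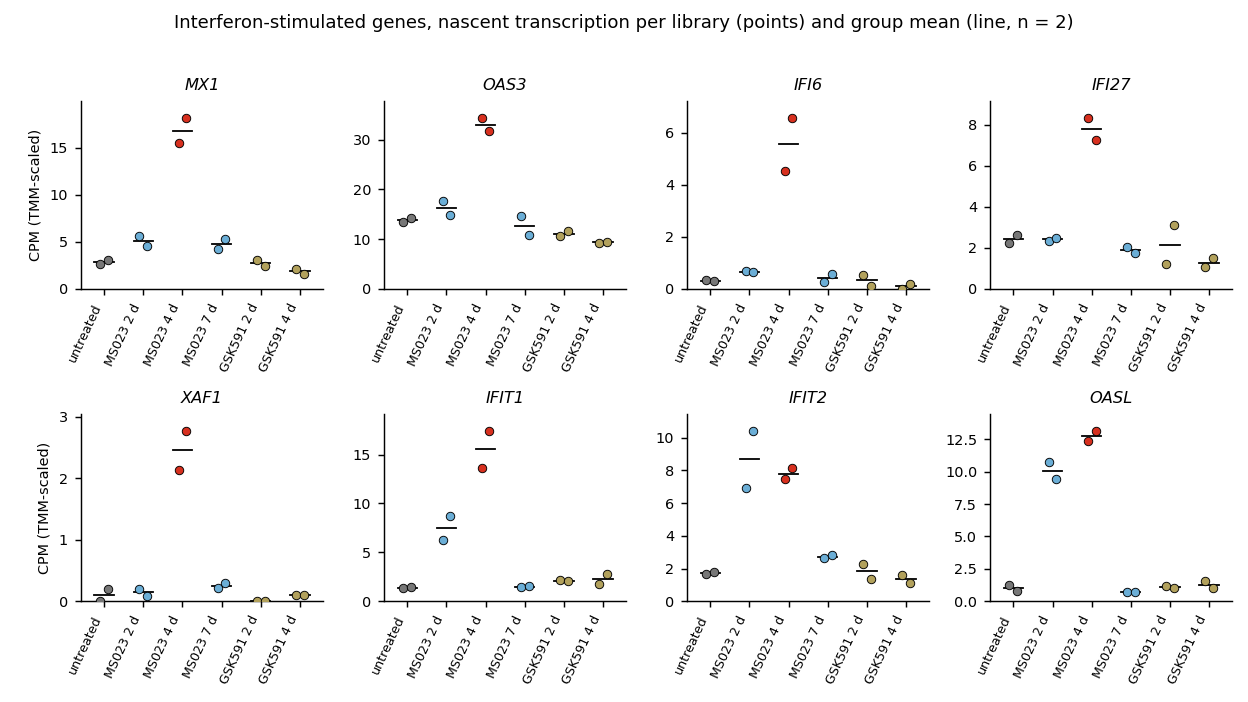
Level of 8 interferon effector genes in CPM (linear axes from 0) in each library of untreated cells, MS023 at 2, 4 and 7 days and GSK591 at 2 and 4 days. Points are libraries and lines are means of 2. MX1, OAS3, IFI6, IFI27 and XAF1 are high only in the 4 day MS023 libraries, while IFIT2 and OASL are about as high at 2 days of MS023 as at 4 days.

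The effectors did not follow 1 course. OAS3, IFI27 and XAF1 had 2 day levels that overlapped those of untreated cells or lay just above them, MX1, IFI6 and OAS1 were somewhat higher at 2 days than in untreated cells, and in all 6 the 4 day libraries were the highest. IFIT1, an inhibitor of the translation of viral RNA, was already at 6.26 and 8.68 CPM at 2 days, against 1.33 and 1.41 CPM in untreated cells. It stood at 13.6 and 17.4 CPM at 4 days (log2 fold change 1.05, SE 0.215, adjusted p = 0.00156, edgeR) and was back at 1.42 and 1.59 CPM at 7 days. OASL, an OAS relative that acts in RNA sensing, stood at 10.8 and 9.41 CPM at 2 days and 12.4 and 13.2 CPM at 4 days. Its log2 fold change between these days was 0.34 (SE 0.241) and did not pass the test (adjusted p = 0.495, edgeR), although the libraries did not overlap. Its untreated level was 1.22 and 0.806 CPM and its 7 day level 0.708 and 0.724 CPM. IFIT2 had 6.94 and 10.4 CPM at 2 days and 7.46 and 8.12 CPM at 4 days, which overlap, with a log2 fold change of -0.16 (adjusted p = 0.798, edgeR). ISG15, a ubiquitin-like modifier, had 6.45 and 5.54 CPM at 2 days and 7.18 and 8.83 CPM at 4 days (log2 fold change 0.42, adjusted p = 0.372, edgeR).

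Against untreated cells, 11 of the 42 effectors were called higher at 2 days and 31 at 4 days of MS023, beside 6.18% and 7.8% of all genes called higher in these comparisons, which share their libraries with each other and with the comparison of 4 and 2 days. At 7 days against untreated cells, in libraries that the comparison of 4 and 2 days did not use, 3 effectors were called higher and 0 lower, beside 7.13% and 6.51% of all genes. The effectors' median log2 fold change there was 0.34. Among the 7 day calls was ISG20, an RNA exonuclease, at 0.86 (adjusted p = 8.91e-05, edgeR). In the authors' deposited table, which compares each time with untreated cells, 38 effectors are listed, 13 of them higher with an adjusted p below 0.05 at 2 days and 29 at 4 days, and 35 of 38 have the larger log2 fold change at 4 days.

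Of the 14 calls, MX1, OAS3, IFI6 and IFI27 held when each of the 4 libraries was left out in turn. The other 10 lost the call in at least 1 of these fits. Their highest adjusted p ran from 0.0980 for CMPK2 (without replicate 2 at 4 days) to 0.491 for DDX60 (without replicate 1 at 2 days). The count of effectors called was 5 without replicate 1 at 2 days, 10 without replicate 2 at 2 days, 8 without replicate 1 at 4 days and 4 without replicate 2 at 4 days. It was 7 with scaling by total counts. DESeq2 gave an adjusted p for 5 of the 14 and called 2 of them. Over all settings tried, the list's median lay between 0.54 and 0.75. Among the 14, IFI6 and XAF1 entered the test only through the 4 day libraries, so their calls and the keeping of the IFI6 call are no separate support.

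Genes upstream of the effectors were called in both directions. Of the sensing list, which holds receptors, adaptors and interferon genes, 10 of 16 members could be tested, 0 rose and 1 fell, beside 2.22% and 2.69% of all genes. The 1 was MAVS, the mitochondrial adaptor of the RNA receptors, at 67.8 and 69.8 CPM at 2 days and 50.9 and 54.4 CPM at 4 days (log2 fold change -0.39, SE 0.106, adjusted p = 0.0227, edgeR), a call that was lost without replicate 1 at 4 days (adjusted p = 0.239, edgeR). IFIH1, which encodes the RNA receptor MDA5, had 2.44 and 2.58 CPM at 2 days and 4.48 and 5.06 CPM at 4 days but did not pass the test (log2 fold change 0.92, adjusted p = 0.0851, edgeR). RIGI, the gene of RIG-I, had 3.91 and 3.88 CPM at 2 days and 4.62 and 4.63 CPM at 4 days (log2 fold change 0.25, adjusted p = 0.702, edgeR). Interferon genes themselves were at the limit of detection. IFNB1 had 0 counts in each of the 12 libraries described here, which allows up to 3 counts in each, and IFNL1 had 0 and 5 counts at 2 days and 6 and 2 at 4 days. IFNE, an epithelial interferon, had 9 and 8 counts at 2 days and 20 and 18 at 4 days and did not pass (log2 fold change 0.73, adjusted p = 0.428, edgeR).

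Of 25 signalling genes tested, 2 rose and 1 fell, beside the same shares of all genes, with a median of -0.06 that was 0.01 under scaling by total counts. IRF7, a transcription factor that amplifies interferon production, stood at 20.5 and 20.2 CPM at 2 days and 28.8 and 32.5 CPM at 4 days (log2 fold change 0.59, SE 0.128, adjusted p = 0.00305, edgeR). STAT6, a factor of interleukin 4 signalling, fell by 0.46 on the log2 scale (adjusted p = 0.0142, edgeR). The calls of IRF7 and STAT6 were lost when 1 library was left out, IRF7 without replicate 2 at 4 days (adjusted p = 0.0938, edgeR) and STAT6 without replicate 1 at 2 days (0.268). Of 19 genes of antigen presentation by major histocompatibility complex class I, 0 passed the test in either direction (median 0.08), and 0 of 24 NF-κB and inflammatory genes did (median -0.003, and 0.07 under scaling by total counts). At an unadjusted p below 0.05 (edgeR), 3 of the former and 9 of the latter passed, DESeq2 called 0 of each, and a fit of the compared groups alone called 1 and 7.

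HELZ2, an interferon-inducible helicase outside the naming rule that was picked once its values were known, stood at 35.3 and 37.2 CPM at 2 days and 74.9 and 75.1 CPM at 4 days (log2 fold change 1.05, SE 0.115, adjusted p = 1.56e-08, edgeR). It was at 15.3 and 16.5 CPM in untreated cells and 32.9 and 35.2 CPM at 7 days, so that its 7 day level was like that of 2 days.

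The same genes were then examined in the GSK591 libraries. Between 2 and 4 days of GSK591, 0 of the 42 effectors were called by edgeR in either direction (4 had an unadjusted p below 0.05), beside 1.14% of all genes called higher and 2.25% lower (262 and 516 genes, 3.39% in all, and 32 and 41 with scaling by total counts), and their median was 0.18, with 28 of 42 above 0. MX1 had 3.09 and 2.41 CPM at 2 days and 2.11 and 1.60 CPM at 4 days of GSK591, and OAS3 had 10.6 and 11.6 CPM and then 9.31 and 9.43 CPM. XAF1 had 0 and 0 counts at 2 days and 1 and 1 at 4 days of GSK591, and TRIM22, an antiviral effector, had 5 and 2 and then 10 and 13 (log2 fold change 1.35, adjusted p = 0.335, edgeR). The change with MS023 minus that with GSK591 was tested in the same fit. It was called for 43 genes (0.188%), 37 higher (0.161%) and 6 lower (0.0262%), among them MX1 (2.28, adjusted p = 0.00287, edgeR), IFI27 (2.47, adjusted p = 0.0169), OAS3 (1.28, adjusted p = 0.00139) and HELZ2 (1.22, adjusted p = 0.000453). Scaling by total counts gave 0 calls of this difference (603 genes had an unadjusted p below 0.05, edgeR), and DESeq2 gave 28. Leaving out 1 of the 8 libraries left 11 calls (replicate 1 of GSK591 at 4 days) to 33 (replicate 1 of MS023 at 4 days), with 14 without replicate 1 of MS023 at 2 days or replicate 2 at 4 days, 23 without replicate 2 of MS023 at 2 days, and 27, 16 and 21 without replicates 1 and 2 of GSK591 at 2 days and replicate 2 at 4 days.

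**Figure D2:**
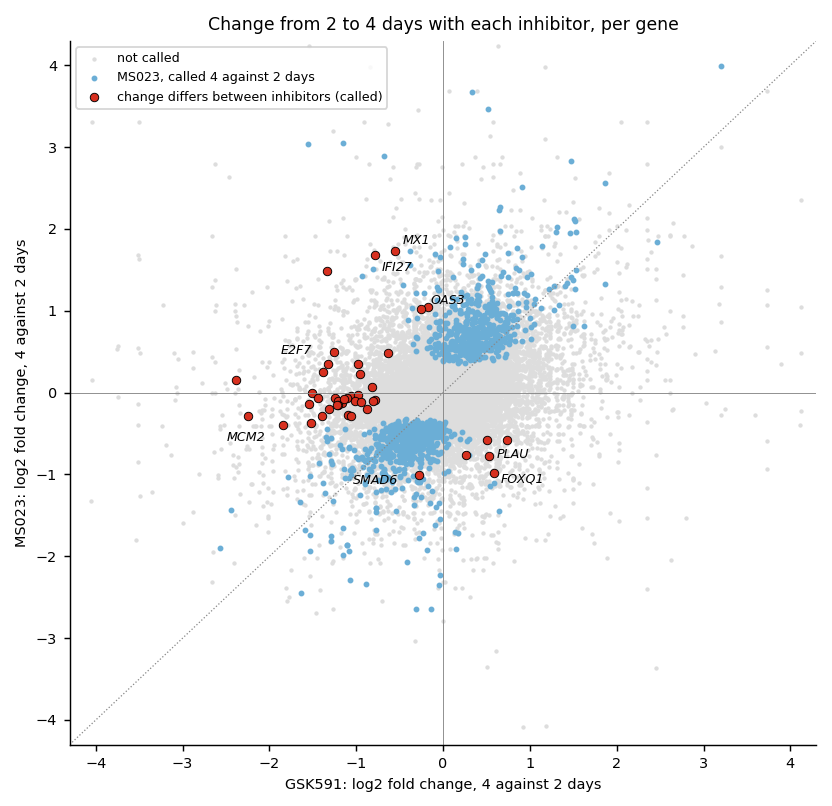
Log2 fold change from 2 to 4 days with GSK591 (x) and MS023 (y), 1 point per gene tested. Blue points are called with MS023, red points are the genes whose change differed between the inhibitors, and the dotted line marks equal change. Of the 22919 genes, 47 lie outside the axes, none of them called with MS023. MX1, IFI27 and OAS3 lie above the dotted line with a rise on the y axis, while E2F7 and MCM2 lie left of it with a fall on the x axis.

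Outside the interferon lists, the largest rise by the naming rule was that of MUC5B (ENSG00000117983.17, chromosome 11, 1223066 to 1262172, plus strand), which encodes a gel-forming mucin of the airways. It stood at 23.1 and 24.7 CPM at 2 days and 103 and 91.5 CPM at 4 days, beside 15.5 and 13.0 CPM in untreated cells and 30.0 and 36.7 CPM at 7 days. The log2 fold change of MUC5B was 2.03 (SE 0.172, adjusted p = 2.85e-08, edgeR). With GSK591 it also rose, from 19.5 and 17.4 CPM to 44.9 and 46.4 CPM (log2 fold change 1.31, adjusted p = 7.08e-05, edgeR), and the difference between the inhibitors did not pass (adjusted p = 0.544). The long non-coding RNA LINC02688, which lies on the same strand of chromosome 11 from 1049880 to 1055749, rose from 4.69 and 4.25 CPM to 10.7 and 11.2 CPM (log2 fold change 1.30, adjusted p = 0.000114, edgeR) and by 1.40 with GSK591.

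RASSF10, of a family of Ras-association proteins, rose from 25.5 and 28.6 CPM to 61.8 and 64.4 CPM (log2 fold change 1.22, SE 0.129, adjusted p = 6.40e-09, edgeR) and was still at 51.1 and 45.5 CPM at 7 days, above the untreated 14.8 and 15.9 CPM. ABHD5, a co-activator of triglyceride breakdown, rose from 16.6 and 16.0 CPM to 36.8 and 37.5 CPM (log2 fold change 1.19, adjusted p = 3.59e-06, edgeR). Here the 2 day libraries were the low ones with TMM scaling, since untreated cells had 25.4 and 32.5 CPM. The RNA AC007040.1 behaved likewise, at 3.13 and 4.62 CPM at 2 days, 11.9 and 13.5 CPM at 4 days and 10.7 and 11.3 CPM in untreated cells (log2 fold change 1.71, adjusted p = 7.23e-07, edgeR), and 3 genes on the other strand overlap its exons. The other rises among the 12 largest were those of CREB3L1 (1.41), AC026979.2 (1.28), AC136475.3 (1.22), the carboxypeptidase gene CPM (1.21) and AC099811.3 (1.15). With 1 library left out, the highest adjusted p (edgeR) was 0.101 for CREB3L1 and 0.0578 for CPM, both without replicate 1 at 2 days, and 0.0752 for AC099811.3 and 0.0718 for AC136475.3, both without replicate 2 at 2 days.

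The largest falls included a pair of long non-coding RNAs whose gene bodies overlap on opposite strands of chromosome 19. IGFL2-AS1 (ENSG00000268621.5, 46189166 to 46203083, minus strand) stood at 44.7 and 47.0 CPM at 2 days and 14.8 and 13.7 CPM at 4 days, beside 32.2 and 31.0 CPM in untreated cells. Its log2 fold change was -1.68 (SE 0.125, adjusted p = 9.03e-14, edgeR). AC007785.1 (46101122 to 46196218, plus strand) stood at 9.39 and 10.4 CPM at 2 days and 1.85 and 1.78 CPM at 4 days (log2 fold change -2.44, SE 0.244, adjusted p = 1.54e-09, edgeR). At 7 days of MS023 they were back at 37.2 and 33.7 CPM and at 7.29 and 6.08 CPM. With GSK591 both also fell between 2 and 4 days, by 1.59 and 1.64 on the log2 scale (adjusted p = 5.25e-11 and 0.00372, edgeR).

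SMAD6, an inhibitor of bone morphogenetic protein signalling whose fall was just outside the 12 largest, was at 280 and 280 CPM at 2 days and 137 and 141 CPM at 4 days, a fall to the TMM-scaled untreated level of 125 and 140 CPM (log2 fold change -1.01, SE 0.111, adjusted p = 1.56e-08, edgeR). With GSK591 it was at 107 and 107 CPM and then at 82.9 and 93.2 CPM, and the changes differed by -0.73 (adjusted p = 0.0242, edgeR). CCN5, a secreted matricellular protein, fell from 12.2 and 9.51 CPM to 4.33 and 3.63 CPM (log2 fold change -1.44, adjusted p = 3.25e-06, edgeR), below the TMM-scaled untreated level of 14.9 and 16.5 CPM. DEPP1, a FOXO target, fell by 1.18 on the log2 scale (adjusted p = 2.20e-06, edgeR) to 8.38 and 9.61 CPM. Other falls among the 12 largest were those of LILRA6 (-1.28), DUSP5 (-1.19), AP000769.3 (-1.12), TMPPE (-1.10), CBR1 (-1.06), AC006273.1 (-1.05) and TLE4 (-1.04). With 1 library left out, the highest adjusted p (edgeR) was 0.112 for TMPPE and 0.334 for AP000769.3, both without replicate 1 at 2 days, 0.0961 for CBR1 without replicate 2 at 4 days and 0.249 for AC006273.1 without replicate 1 at 4 days.

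Immediate early genes, which respond to growth factor and stress signals within minutes, were called in 1 direction only. Of 22 tested, 9 fell and 0 rose, beside 2.69% of all genes that fell, and the median log2 fold change was -0.41. DUSP1, a phosphatase that switches off mitogen-activated protein kinases, stood at 289 and 290 CPM at 2 days and 143 and 166 CPM at 4 days (log2 fold change -0.91, SE 0.109, adjusted p = 1.41e-07, edgeR). Untreated cells had 205 and 224 CPM, so that with TMM scaling the 2 day libraries lay above and the 4 day libraries below them. DUSP5, a nuclear phosphatase of ERK, stood at 57.6 and 58.9 CPM and then at 25.6 and 25.4 CPM (log2 fold change -1.19, SE 0.149, adjusted p = 3.59e-06, edgeR), and untreated cells at 40.8 and 44.4 CPM. The other members called were NR4A1 (-0.94), FOSL2 (-0.65), ZFP36 (-0.58), JUN (-0.66), IER2 (-0.51), IER5 (-0.38) and FOSL1 (-0.47). DUSP1, DUSP5, FOSL2 and JUN kept the call without each of the 4 libraries, while NR4A1, IER2 and FOSL1 lost it without replicate 1 at 2 days (adjusted p = 0.0545, 0.148 and 0.340, edgeR), ZFP36 without replicate 2 at 4 days (0.0516) and IER5 without replicate 1 at 4 days (0.351). With GSK591, 4 of the 22 fell (median -0.15), beside 2.25% of all genes that fell with it. The difference between inhibitors passed for 0 of the 22 (4 had an unadjusted p below 0.05, edgeR), with DUSP1 nearest (adjusted p = 0.0532).

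Genes of the integrated stress response, the programme that follows phosphorylation of the initiation factor eIF2, showed 7 falls and 1 rise among 24 tested (median -0.33), beside 2.69% of all genes that fell and 2.22% that rose. PPP1R15A, the regulatory subunit of the phosphatase that reverses this phosphorylation, fell from 65.4 and 61.7 CPM to 36.7 and 35.9 CPM, with untreated cells at 53.6 and 54.6 CPM (log2 fold change -0.81, SE 0.112, adjusted p = 3.27e-06, edgeR). CEBPB, a transcription factor, fell from 109 and 108 CPM to 65.7 and 74.8 CPM (log2 fold change -0.63, adjusted p = 0.000643, edgeR), both above the untreated 35.0 and 32.1 CPM. The others that fell were SLC3A2, DDIT4, TRIB3, ATF4 and STC2, by 0.39 to 0.52 on the log2 scale, and XBP1, a factor of the unfolded protein response, rose by 0.63 (adjusted p = 0.00151, edgeR). With GSK591, 4 of the 24 fell and 0 rose (median -0.13), beside 2.25% of all genes that fell with it. The difference between inhibitors passed for 0 of the 24 (3 had an unadjusted p below 0.05, edgeR). Only PPP1R15A kept its call without each of the 4 libraries. Without replicate 1 at 4 days, 3 of the 24 were called, 4 without replicate 2 at 4 days, 4 without replicate 1 at 2 days and 5 without replicate 2 at 2 days.

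Host genes of small nucleolar RNAs, which carry the guide RNAs of ribosomal RNA modification in their introns, fell in 8 of 18 cases with 0 rises (median -0.34), beside 2.69% of all genes that fell, and 17 of 18 had a log2 fold change below 0. SNHG19 stood at 64.3 and 60.1 CPM at 2 days and 35.1 and 37.7 CPM at 4 days, close to the untreated 38.3 and 38.5 CPM (log2 fold change -0.77, SE 0.112, adjusted p = 5.84e-06, edgeR). SNHG1 stood at 46.0 and 52.0 CPM and then at 25.4 and 29.6 CPM (log2 fold change -0.83, SE 0.122, adjusted p = 7.29e-06, edgeR), with 48.6 and 44.5 CPM in untreated cells. SNHG29 (-0.70), SNHG15 (-0.59), SNHG3 (-0.49), SNHG7 (-0.50), GAS5 (-0.44) and SNHG12 (-0.42) also fell. Several of these genes contain other annotated RNAs on the same strand (7 in SNHG1), so that their counts may be shared. With GSK591, 7 of 18 fell (median -0.37), beside 2.25% of all genes that fell with it. SNHG19, SNHG29, SNHG1 and SNHG15 kept the call without each of the 4 libraries, and the count was 4 without replicate 1 at 4 days, 5 without replicate 2 at 2 days and 6 without each of the others.

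Changes in genes of the translation machinery were small. Of 83 cytosolic ribosomal protein genes, 9 fell and 0 rose, beside 2.69% of all genes that fell, and 74 had a log2 fold change of 0 or below, with a median of -0.21. With GSK591, 22 of the 83 fell and 0 rose (median -0.30), beside 2.25% of all genes that fell with it. RPL13A fell from 81.9 and 81.0 CPM to 49.7 and 47.6 CPM (log2 fold change -0.74, SE 0.103, adjusted p = 3.41e-06, edgeR) and RPL10 from 61.1 and 60.0 CPM to 36.6 and 38.0 CPM (-0.70, adjusted p = 3.02e-05), and these 2 alone kept the call without each of the 4 libraries. The count was 2 without replicate 1 at either time and 3 without replicate 2 at either time. Ribosomal proteins have many processed copies, between which the authors' counting could split reads. Of 30 ribosome biogenesis factors, 3 fell (NOP56, NOP16 and TAF1D, median -0.17), and all 3 calls were lost without 1 library, with an adjusted p of 0.239 to 0.475 (edgeR).

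The signal of the ribosomal DNA locus itself was mostly lower at 4 days. Of 18 tested features annotated in these repeats, 10 fell and 2 rose, beside 2.69% and 2.22% of all genes, with a median of -1.09. RNA5-8SN1, a copy of the 5.8S ribosomal RNA gene, stood at 1145 and 660.1 CPM at 2 days and 476.2 and 370.3 CPM at 4 days (log2 fold change -1.09, adjusted p = 0.0272, edgeR), so that the 2 libraries at 2 days differed from each other by more than the second of them differed from the 4 day libraries. MIR6724-4, a hairpin annotated in the same repeats, stood at 49.2 and 41.4 CPM and then at 9.88 and 15.1 CPM (-1.86, adjusted p = 0.000595), with 13.4 and 15.2 CPM in untreated cells. The 2 that rose, FP236383.1 and FP671120.1, are long transcripts of the same locus and rose by 0.68 and 0.75 (adjusted p = 0.0421 and 0.0104, edgeR). The copies are near identical, so these calls are not independent of each other and the copy of origin is uncertain. Small nuclear RNA genes showed 10 falls and 0 rises among 62 (median -0.41), with RNU1-1, a U1 gene, at 47.6 and 48.2 CPM at 2 days, 32.4 and 29.2 CPM at 4 days and 26.7 and 25.6 CPM in untreated cells (log2 fold change -0.64, adjusted p = 0.00150, edgeR), and the same limit on copies holds. The features named here lie outside the naming rule, a choice made after their values were seen.

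**Figure D3:**
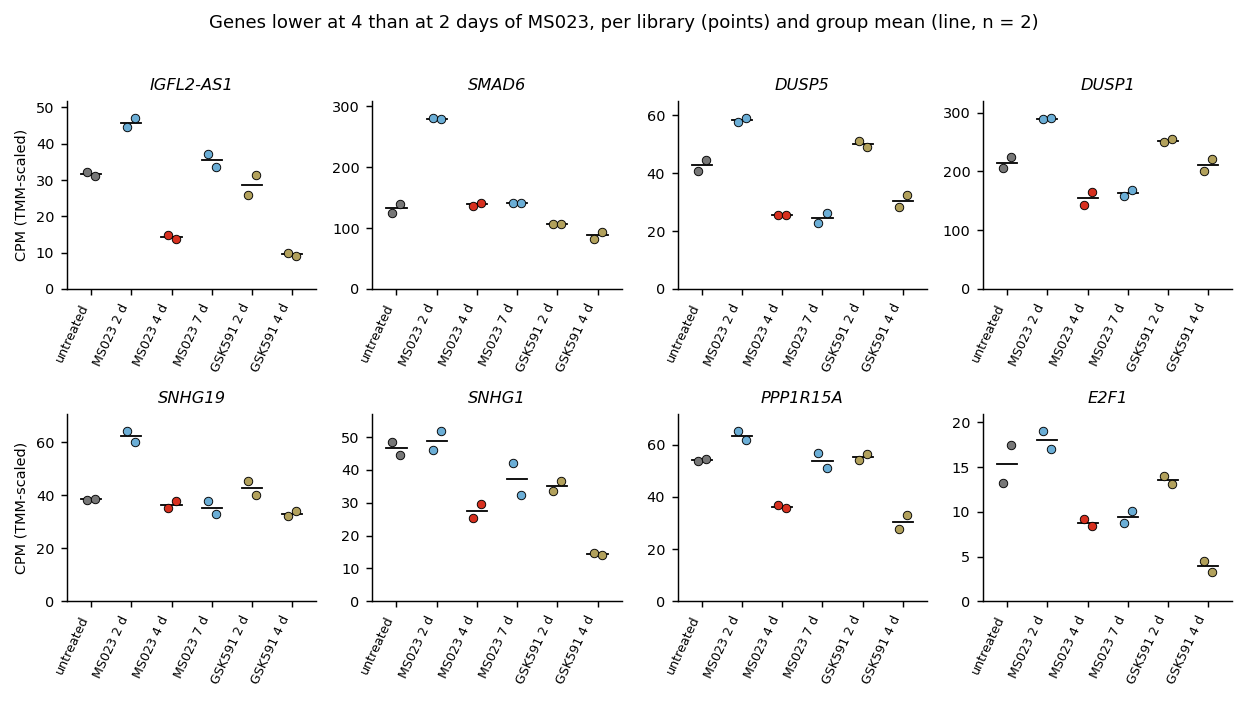
Level in CPM (linear axes from 0) of 8 genes that fell between 2 and 4 days of MS023, in each library. Points are libraries and lines are means of 2. SMAD6, DUSP1, DUSP5, SNHG19 and PPP1R15A are higher at 2 days of MS023 than in untreated cells. All 8 genes are also lower on mean at 4 than at 2 days of GSK591. The log2 fold change with GSK591 is -1.78 for E2F1, -1.29 for SNHG1, -0.865 for PPP1R15A and -0.72 for DUSP5. It is smaller for SNHG19 (-0.362) and DUSP1 (-0.26).

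Cytoskeletal and matrix genes driven by YAP and SRF showed 8 falls and 1 rise (COL4A1, 0.86) among 29 tested, with a median of -0.14 that was 0.02 without replicate 1 at 2 days. The counts of this and the next 2 lists stand beside 2.69% of all genes that fell and 2.22% that rose. VIM, the intermediate filament vimentin, fell from 52.6 and 63.0 CPM to 32.7 and 35.1 CPM (log2 fold change -0.77, adjusted p = 5.54e-05, edgeR), below the TMM-scaled untreated level of 54.3 and 59.8 CPM. It kept the call without each of the 4 libraries, while AMOTL2, CCN1, AJUBA, TGFBI, THBS1 and TPM1 (-0.37 to -0.78) did not, and without replicate 1 at either time 3 of the 29 were called. Targets of the oxidative stress factor NRF2 showed 3 falls and 1 rise among 20 (median -0.32). OSGIN1 and HMOX1, which encodes haem oxygenase, fell by 0.71 and 0.78 on the log2 scale (adjusted p = 7.91e-06 and 0.000489, edgeR), while the aldehyde dehydrogenase gene ALDH3A1 rose from 93.3 and 118 CPM to 170 and 188 CPM (0.76, adjusted p = 5.84e-06). Of 15 acute phase and complement genes tested, 2 rose and 1 fell. FGA, a chain of fibrinogen, rose from 20.3 and 19.8 CPM to 33.5 and 38.1 CPM (log2 fold change 0.84, adjusted p = 6.26e-05, edgeR) against an untreated level of 2.45 and 2.42 CPM. HAMP, the iron hormone hepcidin, fell by 1.24 on the log2 scale (adjusted p = 0.00138, edgeR), a call lost without replicate 2 at 4 days (adjusted p = 0.0621).

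Of 8 markers of lung epithelial lines, 3 fell and 0 rose (median -0.21), and 4 had a log2 fold change above 0. Calls among the markers stand beside 2.69% of all genes that fell and 2.22% that rose. The keratin genes KRT8, KRT18 and KRT7 fell by 0.50, 0.55 and 0.41 on the log2 scale (adjusted p = 0.00137, 0.00149 and 0.00543, edgeR), KRT7 not without replicate 1 at 2 days (adjusted p = 0.101). CDH1, EPCAM, KRT19 and AKR1C1 were at 0.48, 0.59, 0.14 and 0.002 and AKR1B10 at -0.50, and none of these passed the test. The 8 markers summed to 1096 and 1117 CPM at 2 days and 869.7 and 925.2 CPM at 4 days, with 0 of 8 at 0 in each library. Markers of leukocytes summed to 6.55 and 7.38 CPM at 2 days and 9.59 and 7.76 CPM at 4 days, with 2 of 8 at 0 in each of the 4 libraries. Markers of fibroblasts summed to 3.42, 3.32, 6.82 and 5.20 CPM in the same order, with 4, 1, 0 and 3 of 7 at 0, and those of endothelium to 1.08, 0.831, 1.63 and 1.42 CPM, with 1, 0, 1 and 2 of 5 at 0. COL1A1, a fibroblast marker, rose by 0.86 (adjusted p = 0.0465, edgeR) from 2.64 and 2.58 CPM to 5.54 and 3.99 CPM, a call lost without replicate 1 at 4 days (adjusted p = 0.430).

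Fewer cell cycle genes were called between 2 and 4 days of MS023 than of GSK591. Of 45 genes of DNA replication and the G1/S transition, 6 fell and 0 rose with MS023 (median -0.21), beside 2.69% of all genes that fell, and 21 fell with GSK591 (median -0.82), beside 2.25%. E2F1, a factor that drives S phase genes, fell from 19.1 and 17.0 CPM to 9.17 and 8.40 CPM with MS023 (adjusted p = 9.63e-05, edgeR, with a log2 fold change of -1.03 and an SE of 0.174) and from 14.0 and 13.1 CPM to 4.51 and 3.31 CPM with GSK591. It alone of the 6 kept its call without each of the 4 libraries. CDC6, MCM7, MCM3, POLE and ORC6 also fell with MS023, by 0.44 to 0.76 on the log2 scale, and the count was 3 without replicate 2 at 2 days and 1 without each of the other 3 libraries. Of 39 genes of mitosis, 1 fell with MS023 (CDC20, -0.56, adjusted p = 0.00642, edgeR, and 0.115 without replicate 1 at 2 days) and 11 with GSK591. Of 56 replication-dependent histone genes tested, 0 were called with MS023 by edgeR (median -0.10, 2 with an unadjusted p below 0.05, and 0 by DESeq2) and 44 fell with GSK591 (median -0.74). Against untreated cells, 7 replication genes were called lower at 2 days of MS023, 18 at 4 days and 22 at 7 days, and 0 higher. In the same order, 3, 7 and 13 mitotic genes were lower and 1, 1 and 0 higher. Of the histone genes, 0, 0 and 6 were lower and 24, 17 and 3 higher. Of all 22919 genes, 965, 1459 and 1493 were lower and 1416, 1788 and 1634 higher.

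The test of the difference between inhibitors was passed by 4 of the 45 replication genes, 2 of the 39 mitotic genes and 12 of the 56 histone genes, each with the more negative change under GSK591, beside 0.161% of all genes. MCM2, a subunit of the replicative helicase, stood at 13.3 and 9.69 CPM and then at 9.95 and 7.48 CPM with MS023, which overlap. With GSK591 it went from 9.01 and 11.0 CPM to 2.21 and 3.41 CPM, and the changes differed by 1.44 (adjusted p = 0.0225, edgeR). The same test was passed by E2F7 (1.68, adjusted p = 0.00976), PCLAF (1.64, adjusted p = 0.0384), E2F2 (1.51, adjusted p = 0.00677) and AURKB, a mitotic kinase (1.15, adjusted p = 0.00231). In the other direction stood FOXQ1, a forkhead factor (-1.57, adjusted p = 0.00969), AC009690.1 (-1.31, adjusted p = 0.0148), PLAU, the urokinase protease (-1.31, adjusted p = 0.00906) and GABRE (-1.08, adjusted p = 0.0125), each of which fell with MS023. FOXQ1 went from 5.87 and 7.20 CPM to 3.27 and 3.35 CPM with MS023 and from 6.18 and 4.94 CPM to 7.68 and 8.93 CPM with GSK591.

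Over all genes, the changes between 2 and 4 days with the 2 inhibitors, which share no library, had the same sign more often than not among the genes called. Of the 509 genes that rose with MS023, 449 had a log2 fold change above 0 with GSK591 and 78 were called higher there (15.3% of the 509 and 29.8% of the 262), while 0 were called lower. Of the 617 that fell, 32 were above 0 with GSK591, 184 were called lower (29.8% of the 617 and 35.7% of the 516) and 1 was called higher. Of all 22919 genes tested, 11466 were above 0 with GSK591, 1.14% were called higher and 2.25% lower. Across 11050 genes the log2 fold changes had Pearson's r = 0.566 and Spearman's rho = 0.552, given as a description, since genes are not independent and the 2 day and 4 day libraries of both inhibitors may share conditions that the labels do not give. Changes with time in culture and changes with time on an inhibitor cannot be told apart here.

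**Figure D4:**
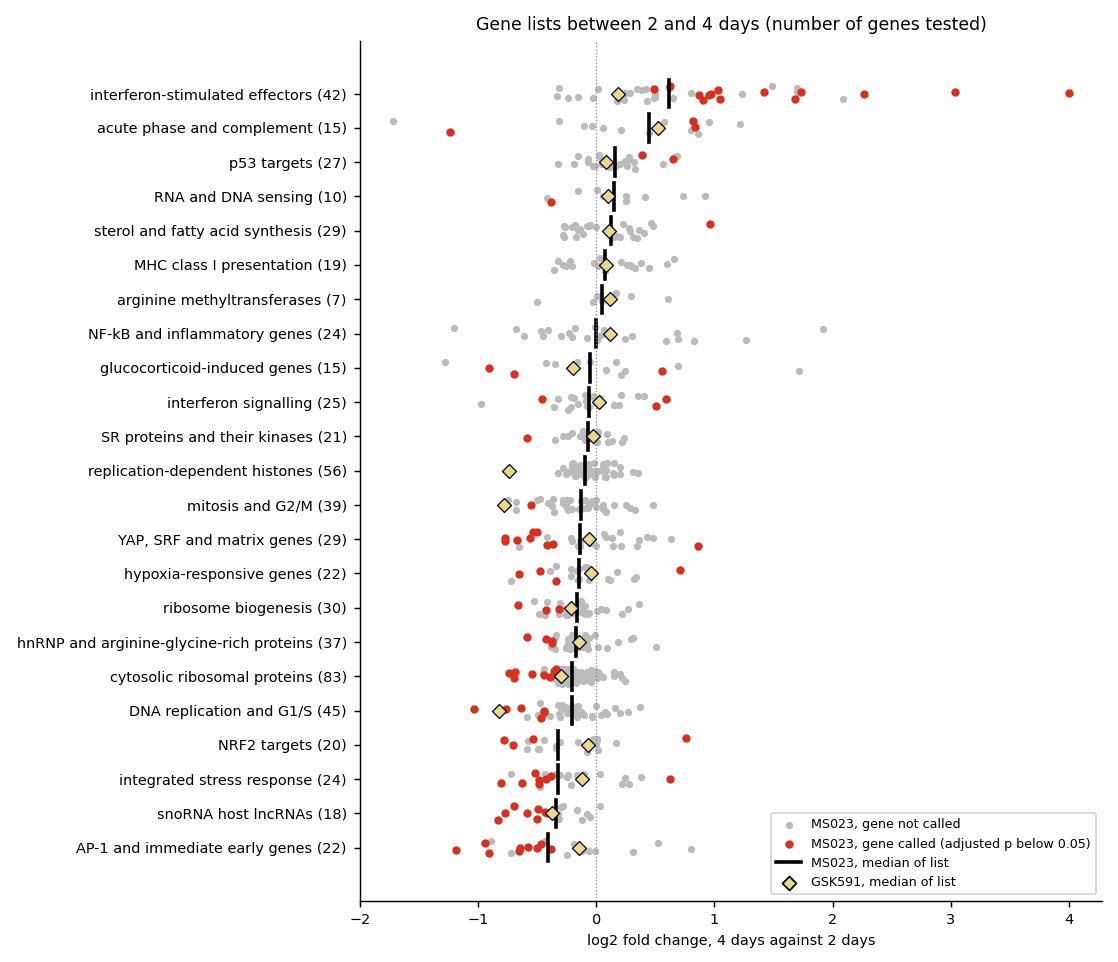
Log2 fold change from 2 to 4 days of MS023 for each tested gene of 23 lists, with called genes in red and the list's median as a black bar. Yellow diamonds give the median of the same list with GSK591. Interferon effectors lie farthest to the right, immediate early genes farthest to the left, and the diamonds lie far left of the bars for replication, mitosis and histone genes.

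With TMM scaling, the genes called between 2 and 4 days stood on median on opposite sides of the untreated level on these days. Against untreated cells, the 509 genes that rose had medians of -0.31 at 2 days and 0.41 at 4 days on the log2 scale, and the 617 that fell had medians of 0.30 and -0.33. Both values share libraries with the choice of these genes and are given side by side as a description. At 7 days against untreated cells, which share no library with it, the medians were 0.16 and -0.16. There, 106 of the 509 were called higher and 19 lower, and 161 of the 617 were called lower and 46 higher, beside 3127 calls among all genes (13.6%). Scaling by total counts alone turned the 7 day comparison to 16196 calls with 99.5% of them higher and shifted its median by 1.02, so the 7 day values hold relative to TMM scaling. The 2 and 4 day comparisons with untreated cells were not refitted with total counts. The signs of their medians likewise hold only relative to TMM scaling.

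Genes that fell had shorter spans on median than those that rose, a difference given as a description with no test. Protein-coding genes tested had a median span of 31.2 kb, those that rose 33.4 kb and those that fell 16.5 kb, and 37.6% of those that fell were under 10 kb against 20.8% of those tested and 22.3% of those that rose. Of the 2996 protein-coding genes in the fifth with the shortest span, 82 rose and 180 fell (median log2 fold change -0.067). Of the 2996 in the fifth with the longest, 70 rose and 60 fell (median 0.022). Among all 14978 protein-coding genes tested, 381 rose and 487 fell. The median level was 24.7 CPM for those that fell, 11.3 CPM for those that rose and 7.98 CPM for those tested. What part level had in the difference of span was not tested. With GSK591 the genes that fell had a median span of 13.3 kb.

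The remaining lists are read against 4.91% of all genes called, 2.22% higher and 2.69% lower. The arginine methyltransferase genes themselves were not called: of 9 listed, 7 could be tested and 0 passed in edgeR or DESeq2 (3 had an unadjusted p below 0.05 in edgeR), with PRMT1 at a log2 fold change of -0.03 (adjusted p = 0.941, edgeR), PRMT5 at 0.05 (0.941), PRMT3 at 0.17 (0.592), CARM1 at -0.50 (0.220), PRMT2 at 0.30 (0.217), PRMT7 at 0.01 (0.990) and PRMT9 at 0.61 (0.132). PRMT6 and PRMT8 had at most 3 counts in each library described here. Of 37 hnRNP and arginine-glycine-rich RNA-binding proteins, a class that holds many substrates of Type I enzymes, 4 fell (HNRNPL, HNRNPA1, RBMX and RBM3, by 0.38 to 0.59 on the log2 scale) and 0 rose (median -0.17), and 0 of the 4 kept the call without each of the 4 libraries. Of 21 SR proteins and their kinases (median -0.07, and 0.002 under scaling by total counts), 1 fell (SRSF2, -0.59, adjusted p = 0.0298, edgeR, and 0.348 without replicate 1 at 2 days). Of 27 p53 targets, 2 rose, MDM2 by 0.39 and RRM2B by 0.65, with the calls lost without replicate 2 at 4 days and replicate 1 at 2 days (adjusted p = 0.391 and 0.232, edgeR). Of 29 genes of sterol and fatty acid synthesis, 1 rose, CYP51A1 (0.96, adjusted p = 0.00304, edgeR, and 0.0824 without replicate 1 at 2 days). Of 22 hypoxia-responsive genes, 3 fell (ENO1, ALDOA and LDHA) and 1 rose (AK4), of which ENO1 kept the call without each of the 4 libraries. Of 15 glucocorticoid-induced genes, 2 fell and 1 rose (median -0.05, and 0.02 under scaling by total counts). SGK1, a kinase, fell (-0.70, adjusted p = 0.00013, edgeR) beside DUSP1, and ANGPTL4, an inhibitor of lipoprotein lipase, was the one that rose (0.55, adjusted p = 0.00690, and 0.151 without replicate 1 at 4 days).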

How the data were processed

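Nascent RNA was measured by PRO-seq in 30 libraries of 15 groups of 2. The authors deposited whole-number counts per gene, made with featureCounts 2.0.1 (Subread) on hg38, per the submitters' processing notes; strand use and feature type are not given in the sources used here. All 58780 gene IDs matched GENCODE 29. The authors also deposited tables per comparison, in DESeq2's column layout per the file headers, with a mean normalized signal, log2 fold changes and p-values against untreated cells; these were used only for the interferon effectors.

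All groups entered 1 edgeR 4.0.16 quasi-likelihood fit (R 4.3.3, limma 3.58.1; TMM; filterByExpr with a minimum count of 10 and a minimum total of 15; 15 residual degrees of freedom; Benjamini-Hochberg threshold 0.05). SE is the absolute log2 change divided by the root of F. In simulated data for 4 against 2 days (22919 genes), 75, 75 and 50 genes were changed by 0.5, 1 and 2 (log2). Of these, 9.33%, 36% and 78% were called, and 2 of 75 calls (2.67%) were false. Fewer genes were changed there than were called in the data, and the counts were drawn from the fitted dispersions. The rates therefore may not hold for the data. DESeq2 1.42.0, other scaling, filtering and sample choices were alternatives. With 3143317 to 3935158 counts outside mitochondrial and ribosomal RNA per compared library, genes of few counts were measured least precisely. In the 6 groups used here, the chi-square between the 2 libraries of a group was 2.44 to 7.17 per degree of freedom. Sampling noise alone gives about 1. The value is pooled over genes, so that features with many counts can dominate it, and no test was made on it.

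The members and gene lists were chosen with earlier results of these data known. Named genes were the 12 largest rises and falls among called protein-coding and long non-coding genes averaging 5 CPM or more with no overlap between the days, up to 8 called members per list with the lowest p (3 with the lowest p where fewer than 3 were called), any interferon or methyltransferase gene, and the 5 largest inhibitor differences each way (averaging 5 CPM or more over 8 libraries, every MS023 difference between the days beyond every GSK591 one, pseudocount 0.1 CPM). A few genes that meet this rule are not reported here.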

Additional observations from a re-analysis of the deposited data

Results flagged for a closer look

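The change from 2 to 4 days differed between MS023 and GSK591 for 43 genes by the edgeR test of the difference itself. Each value here is the log2 change with MS023 minus that with GSK591. Higher with MS023 were IFI27 (2.47), MX1 (2.28), OAS3 (1.28) and HELZ2 (1.22) of the interferon response. E2F7 (1.68), PCLAF (1.64), E2F2 (1.51), MCM2 (1.44) and AURKB (1.15) of the cell cycle were also higher. Lower with MS023 were FOXQ1 (-1.57), AC009690.1 (-1.31), PLAU (-1.31), GABRE (-1.08) and SMAD6 (-0.73).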

How the results depend on the processing

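The count of genes called between 2 and 4 days of MS023 (1126) was 482 with DESeq2, 79 with total counts and 2539 with the compared groups alone (2 residual degrees of freedom), and leaving out 1 library gave 278 to 403. The inhibitor difference (43) was 28 with DESeq2, 75 with no filter, 175 with the compared groups alone, 0 with total counts, and 11 to 33 with 1 library left out. GSK591 (778) gave 430, 1532 with the compared groups alone, 73 with total counts (32 higher, 41 lower, and a median shifted to 0.13), and 212 to 356. MS023 at 7 days (3127) gave 1813 with DESeq2, 16196 with total counts, and 1525 to 1739. The cause was not tested. With no filter, 548 of the 970 calls between 2 and 4 days were higher. Of 120 called genes that meet the naming rule, 77 of the 108 with an adjusted p kept the call with DESeq2, 29 with total counts, and 57 to 72 with 1 library left out, and 0 changed sign in the settings run.

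The labels do not say whether replicate numbers pair the samples. Deviations of same-numbered libraries at 2 and 4 days of MS023 correlated at 0.051 over 11117 genes. Over the 105 pairs of groups the correlation ran from -0.451 to 0.487, with 22 above 0.1, so these values do not settle pairing across the series. A replicate block gave 1209, 51, 826 and 3256 calls in the 4 comparisons, in that order.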
